A study of Homo sapiens with 6 samples.

Results

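The genes described here are the VPS (vacuolar protein sorting), TRAPPC (transport protein particle complex) and DENND (DENN domain containing) genes of the MDA-MB-231 expression data. They were taken by name alone, as every gene with a probe set assigned to it and no other gene and an annotation symbol of VPS, TRAPPC or DENND followed by a digit. That gave 71 of the 19775 genes tested, 38 VPS, 16 TRAPPC and 17 DENND. Of the 71, 68 encode proteins and 3 are noncoding RNA genes named after a VPS neighbour (VPS13A-AS1, VPS13C-DT and VPS9D1-AS1). VPS72 carries the stem but encodes a chromatin protein that helps deposit a histone variant, so the name does not always mean trafficking. No expression value enters the rule. The families were nevertheless chosen with knowledge of, and so selected on, the log2 fold changes of SDC1 siRNA against control siRNA on these arrays, so the calls below describe these arrays, no test was made between families, and nothing is drawn from a count of members set against all genes.

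Cells of MDA-MB-231, an established triple-negative human breast cancer line, were transfected with siRNA against SDC1, which encodes the heparan sulfate proteoglycan syndecan-1 (3 arrays), or with a negative control siRNA (3 arrays). The labels name neither the siRNA sequences nor the time after transfection, and no untransfected cells serve as a second baseline, so each value compares the siRNAs with each other alone. Each replicate was an Affymetrix array of biotin-labelled cRNA, and the design describes the replicates as independent. SDC1 was at -1.14, -1.16 and -1.43 in SDC1 siRNA arrays, against 1.13, 1.32 and 1.09 in control siRNA arrays, which left 18.7% of the control transcript (log2 fold change -2.42, SE 0.097, adjusted p = 2.14e-06).

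Every value is a log2 expression value from which the 6-array median of its probe set has been removed, and so shows a difference and not a level. Where groups do not overlap and the gene value rests on 1 probe set, the nearest arrays of the groups therefore have values of equal size and opposite sign, which need not hold for a mean of several probe sets. Log2 fold changes are SDC1 siRNA minus control siRNA from limma, with the standard error (SE) and n = 3 arrays per group, and a gene passed at a Benjamini-Hochberg adjusted p below 0.05 over all 19775 genes. A coarse brightness class, read from the numeric steps of the values, put 48 members at a log2 level of 8 to 16, 20 at 4 to 8 and 3 at 2 to 4. Poly-A spike-in controls divided the arrays into a first batch, SDC1 siRNA replicates 1 and 2 with control siRNA replicate 1, and a second, SDC1 siRNA replicate 3 with control siRNA replicates 2 and 3. The brightness class did not check the identity of the line, since the luminal marker ESR1 and the mesenchymal marker VIM both fell in the brightest class. The luminal markers GATA3 and ERBB2 and the endothelial marker PECAM1 fell there too. The mesenchymal marker SPARC fell in the dimmest class, as did the endothelial CDH5 and the liver marker ALB. The class was not checked against a measured level, and brighter and dimmer refer to this class alone.

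VPS proteins were first found through yeast mutants that missort vacuolar enzymes. In human cells they form ESCRT complexes, which bud vesicles into endosomes, the HOPS and CORVET tethers of endosomes and lysosomes, retromer and retriever, which recycle cargo out of endosomes, and GARP and EARP, which tether endosome-derived vesicles. TRAPP complexes tether vesicles at the Golgi and activate Rab GTPases, the switches that give membranes their identity. DENN domain proteins also activate Rab GTPases, each subfamily acting on its own set.

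More genes fell than rose in each of the 3 families after SDC1 silencing. Of the 71 members 26 fell and 10 rose, and 35 did not pass, where 28.1% of all genes passed, 15.1% lower and 13.0% higher. Without SDC1 siRNA replicate 1 the number that rose was 6. Among the 35 protein-coding VPS genes 14 fell and 8 rose, with a median log2 fold change of -0.13. In the TRAPPC family 4 of 16 fell and 1 rose, so that 31.25% passed, near the 28.1% of all genes. The TRAPPC median was -0.13, or -0.08 without control siRNA replicate 1. The DENND family had 8 of 17 lower and 1 higher, with a median of -0.16 that reached -0.28 with the brightness class read from all 6 arrays. The median of all genes was 0.00. The VPS median was -0.08 with all probe sets averaged and within the second spike-in batch.

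**Figure D1:**
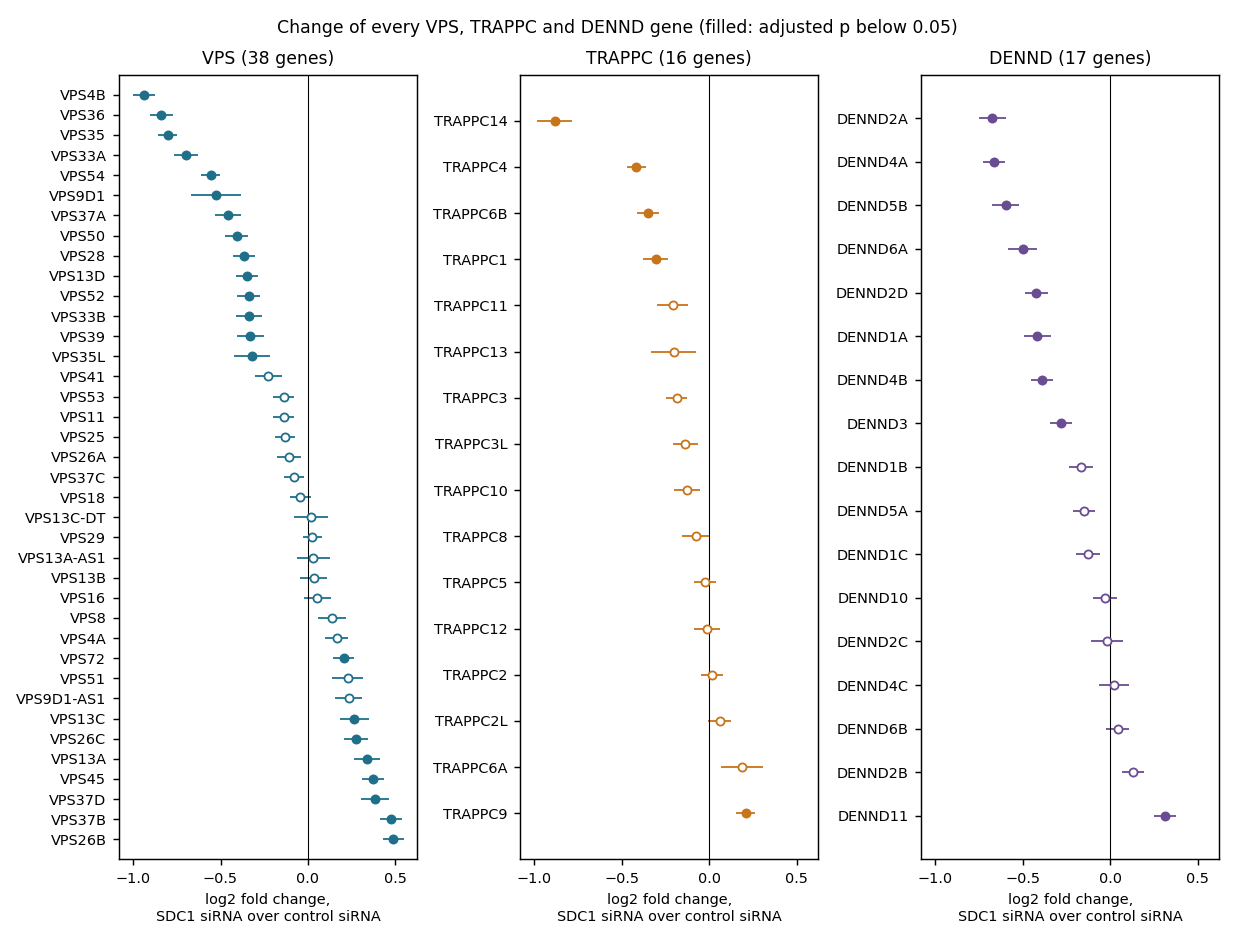
Log2 fold change (horizontal axis, SDC1 siRNA over control siRNA) of all 71 genes, with the SE of the limma fit as bars and filled points at an adjusted p below 0.05. Values run from -0.94 for VPS4B to 0.49 for VPS26B, and 26 filled points lie below 0 against 10 above.

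The changes were moderate in size. Only 8 members passed and changed by 1.5-fold or more, VPS4B, TRAPPC14, VPS36, VPS35, VPS33A, DENND2A, DENND4A and DENND5B, all of them lower, where 6.98% of all genes did so in either direction. For 46 of the 71 members every SDC1 siRNA array lay on the same side of every control siRNA array, which held for 41.7% of all genes. Genes of a brighter class passed more often on these arrays. In the dimmest class none of 3 members passed in limma, none of them at an unadjusted p below 0.05 either, where 5.13% of all genes of that class passed. In the middle class 8 of 20 passed, 7 lower and 1 higher, where 19.9% passed. In the brightest class 28 of 48 members passed, 19 lower and 9 higher, where 40.7% of all genes of that class passed, 22.9% lower and 17.9% higher. By family, 19 of 29 VPS, 4 of 11 TRAPPC and 5 of 8 DENND genes of that class passed.

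**Figure D2:**
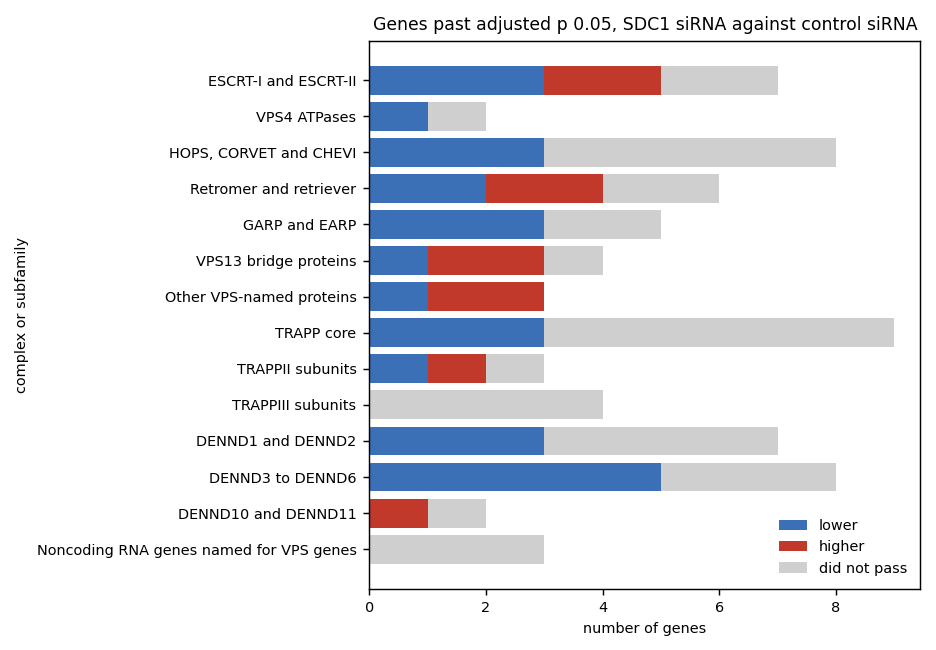
Number of genes (horizontal axis) of each complex or subfamily that were lower, higher or did not pass at an adjusted p below 0.05. ESCRT-I and ESCRT-II, retromer and retriever, and VPS13 genes passed in both directions, and no TRAPPIII gene passed.

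The VPS4 ATPases pull apart the ESCRT-III filaments that close budding vesicles, and of the human paralogs VPS4B fell while VPS4A did not pass. VPS4B was at -0.40, -0.55 and -0.48 with SDC1 siRNA, against 0.51, 0.40 and 0.46 with control siRNA. All SDC1 siRNA arrays lay below all control siRNA arrays, a fall to 52.2% of control (log2 fold change -0.94, SE 0.065, adjusted p = 2.35e-05), the lowest value of the 71 members. VPS4A was at 0.11, 0.22 and 0.04 after SDC1 siRNA, against -0.04, -0.04 and -0.06 after control siRNA, groups that do not overlap either, yet at 0.16 (SE 0.065, adjusted p = 0.101) it did not pass. This pair had the widest gap, 1.10 on the log2 scale, of the 31 pairs of paralogous members compared, and each gene was read by 1 probe set. Their promoters, the 250 bases before the gene start in RefSeq (GRCh38.p14, given 5′ to 3′ on the gene's strand), are shown because this pair differs most. That of VPS4B is chr18:63422477-63422726 on the minus strand, and that of VPS4A chr16:69311100-69311349 on the plus strand. Capitals would mark the letters CACGTG (E-box), CCGGAAG or its reverse complement (ETS family) or the palindromic NRF1 motif, and neither promoter holds any of them.
VPS4B: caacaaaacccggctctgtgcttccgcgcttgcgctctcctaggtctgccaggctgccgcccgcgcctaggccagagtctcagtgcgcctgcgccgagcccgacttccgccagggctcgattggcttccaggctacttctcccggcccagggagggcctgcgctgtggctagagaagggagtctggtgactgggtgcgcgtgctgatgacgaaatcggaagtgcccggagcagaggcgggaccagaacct
VPS4A: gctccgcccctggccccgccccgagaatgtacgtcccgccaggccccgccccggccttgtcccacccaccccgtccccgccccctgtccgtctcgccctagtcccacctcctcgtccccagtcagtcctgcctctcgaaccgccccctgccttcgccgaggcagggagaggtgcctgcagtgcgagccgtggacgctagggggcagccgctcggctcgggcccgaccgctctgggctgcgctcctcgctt

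ESCRT-I and ESCRT-II, the complexes that gather ubiquitinated cargo before ESCRT-III acts, had 3 genes lower and 2 higher of 7. The shares over all genes were 15.1% lower and 13.0% higher. VPS36, the ubiquitin-binding subunit of ESCRT-II, was at -0.47, -0.51 and -0.35 in SDC1 siRNA arrays, against 0.46, 0.35 and 0.37 in control siRNA arrays. That was a fall to 55.9% of control (log2 fold change -0.84, SE 0.067, adjusted p = 5.01e-05) with no overlap, although a probe set in the dimmest class gave 0.18 (adjusted p = 0.270 over all probe sets) and the mean of both was -0.33 (adjusted p = 0.0107). VPS25, its partner in ESCRT-II, was at -0.13 (adjusted p = 0.137). VPS28, a core subunit of ESCRT-I, was at -0.21, -0.12 and -0.25 with SDC1 siRNA, against 0.19, 0.22 and 0.12 with control siRNA, lower in every SDC1 siRNA array by 0.37 on average (SE 0.063, adjusted p = 0.00268).

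The VPS37 subunits of ESCRT-I exist in alternative forms, and these went opposite ways. VPS37A was at -0.27, -0.39 and -0.14 after SDC1 siRNA, against 0.14, 0.19 and 0.24 after control siRNA, a fall of 0.46 (SE 0.076, adjusted p = 0.00221). VPS37B was at 0.19, 0.28 and 0.21 in SDC1 siRNA arrays, against -0.23, -0.19 and -0.33 in control siRNA arrays, a rise of 0.47 (SE 0.064, adjusted p = 0.000730). VPS37D was at 0.33, 0.14 and 0.12 with SDC1 siRNA, against -0.12, -0.30 and -0.13 with control siRNA, a rise of 0.38 (SE 0.081, adjusted p = 0.00798). In each of these 3 genes the groups did not overlap, with the lowest VPS37A value in SDC1 siRNA replicate 2 and the highest VPS37D value in SDC1 siRNA replicate 1. VPS37C, read by 3 probe sets, was at -0.08 (SE 0.058, adjusted p = 0.375).

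HOPS and CORVET share a core of VPS11, VPS16, VPS18 and VPS33A. VPS33A, the Sec1/Munc18-type subunit that guides SNARE pairing, was at -0.27, -0.42 and -0.35 after SDC1 siRNA, against 0.43, 0.27 and 0.34 after control siRNA. It fell to 61.7% of control (log2 fold change -0.70, SE 0.069, adjusted p = 0.000144) without overlap, and its cross-hybridising probe set, left out of the gene value, gave -0.67 and a dimmer one -0.14. The rest of the core did not pass, with VPS11 at -0.14, VPS18 at -0.04 and VPS16 at 0.05. VPS39, a HOPS subunit, fell by 0.33 (adjusted p = 0.0135), while VPS41, its partner, was at -0.23 (adjusted p = 0.0607). VPS33B, the paralog of VPS33A that works in the separate CHEVI complex, fell by 0.34 (adjusted p = 0.00981). VPS8, a CORVET subunit, had a gene value of 0.14 (adjusted p = 0.264). That value averages a probe set at 0.71 and another at -0.44 (adjusted p = 0.000984 and 0.00884 over all probe sets). No direction can be given for VPS8 from these values.

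Retromer is a trimer of VPS35, VPS29 and a VPS26 protein. VPS35, its scaffold, was at -0.36, -0.39 and -0.37 in SDC1 siRNA arrays, against 0.44, 0.41 and 0.43 in control siRNA arrays. The arrays of each group lay close together and far from those of the other group, and the gene fell to 57.3% of control (log2 fold change -0.80, SE 0.054, adjusted p = 2.10e-05). Its 3 probe sets used ran from -0.98 to -0.68, a cross-hybridising one gave -0.65, and one in the dimmest class rose by 0.38 (adjusted p = 0.0172 over all probe sets). The mean of all 5 was -0.54 (adjusted p = 0.000150). VPS26B was at 0.25, 0.20 and 0.25 with SDC1 siRNA, against -0.20, -0.31 and -0.26 with control siRNA, the largest rise of the 71 members (0.49, SE 0.059, adjusted p = 0.000435), and its 2 probe sets gave 0.49 and 0.48. The other VPS26 form, VPS26A, was at -0.11 (adjusted p = 0.285) and VPS29 at 0.02 (adjusted p = 0.796). In retriever, a related recycling complex that shares VPS29, VPS35L fell by 0.32 (adjusted p = 0.0485) and VPS26C rose by 0.28 (adjusted p = 0.0161). The VPS35L and VPS26C calls were lost with all probe sets averaged (-0.15 and 0.18, adjusted p = 0.188 and 0.0505).

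GARP (VPS51, VPS52, VPS53 and VPS54) tethers vesicles at the trans-Golgi network, and EARP swaps VPS54 for VPS50 and acts at recycling endosomes. The subunits that set the complexes apart both fell. VPS54 was at -0.25, -0.29 and -0.26 after SDC1 siRNA, against 0.31, 0.26 and 0.30 after control siRNA, lower by 0.56 (SE 0.055, adjusted p = 0.000147), and its probe sets agreed in sign between -0.68 and -0.43. VPS50 was at -0.15, -0.31 and -0.24 in SDC1 siRNA arrays, against 0.15, 0.21 and 0.17 in control siRNA arrays, lower by 0.41 on its brightest probe set (SE 0.064, adjusted p = 0.00170). With all 4 probe sets averaged VPS50 was at -0.08 (adjusted p = 0.461), so its call rests on that probe set. Of the shared subunits, VPS52 was at -0.18, -0.10 and -0.19 with SDC1 siRNA, against 0.19, 0.26 and 0.10 with control siRNA, lower by 0.34 (SE 0.066, adjusted p = 0.00522). VPS51 was at 0.23 (adjusted p = 0.0949) and VPS53 at -0.14 (adjusted p = 0.122). VPS53 has 9 probe sets, which ran from -0.35 to 0.43.

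The VPS13 proteins are long bridges that move lipids between organelles, and 3 of the 4 passed, in both directions, where 28.1% of all genes passed. VPS13A, mutated in chorea-acanthocytosis, rose by 0.34 (SE 0.076, adjusted p = 0.0101), with all 6 of its probe sets above 0, and by 0.59 with the class read from all 6 arrays (adjusted p = 0.00178). VPS13C rose by 0.27 (adjusted p = 0.0436), a call lost when the fit blocked on spike-in batch (0.24, adjusted p = 0.0931) and with all probe sets averaged (0.25, adjusted p = 0.0994). VPS13D was at -0.12, -0.16 and -0.20 after SDC1 siRNA, against 0.20, 0.12 and 0.24 after control siRNA, without overlap, a fall of 0.35 on its brightest probe set (SE 0.061, adjusted p = 0.00291). The other VPS13D probe sets ran from -0.52 to 0.11, and their mean with it was -0.17 (adjusted p = 0.112). VPS13B, mutated in Cohen syndrome, was at 0.03 (adjusted p = 0.798).

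VPS45, the Sec1/Munc18 protein of endosomal SNAREs, was at 0.24, 0.24 and 0.14 in SDC1 siRNA arrays, against -0.14, -0.22 and -0.14 in control siRNA arrays, a rise of 0.37 without overlap (SE 0.061, adjusted p = 0.00211), or of 0.22 with all probe sets averaged (adjusted p = 0.0242). VPS9D1 fell by 0.53 with a wide SE of 0.14 (adjusted p = 0.0246), the only member that passed with overlapping groups, and the chromatin gene VPS72 rose by 0.21 (adjusted p = 0.0328). None of the 3 noncoding genes passed in limma, and 1 had an unadjusted p below 0.05. VPS9D1-AS1, antisense to VPS9D1, was at 0.02, 0.19 and 0.08 with SDC1 siRNA, against -0.22, -0.16 and -0.02 with control siRNA. Its groups did not overlap and its log2 fold change was 0.23 (SE 0.075, adjusted p = 0.0506), beside 0.03 for VPS13A-AS1 and 0.01 for VPS13C-DT.

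**Figure D3:**
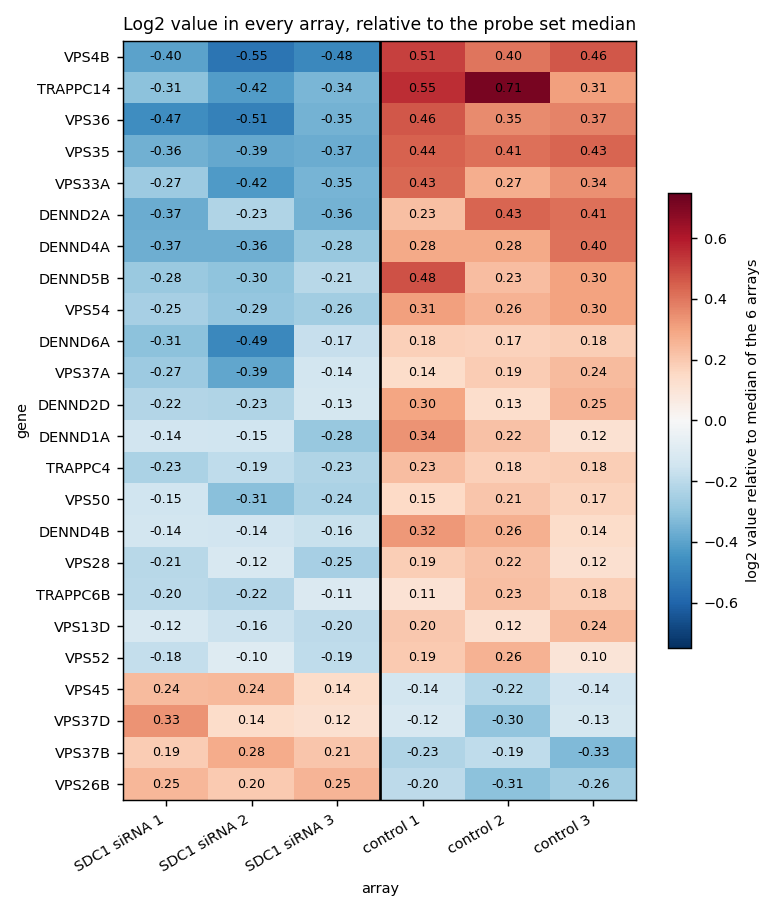
Log2 value relative to the median of the 6 arrays (colour and number) for the 24 members of largest change that passed without overlap, with genes down the page and arrays across. The SDC1 siRNA arrays are negative for the upper 20 genes and positive for VPS45, VPS37D, VPS37B and VPS26B, and the control siRNA arrays have the opposite sign.

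TRAPP complexes share a core and differ in the subunits added to it, TRAPPII acting late in the Golgi and TRAPPIII early in secretion and in autophagy. TRAPPC14, a TRAPPII subunit tied to cilium formation, was at -0.31, -0.42 and -0.34 after SDC1 siRNA, against 0.55, 0.71 and 0.31 after control siRNA. It fell to 54.3% of control (log2 fold change -0.88, SE 0.10, adjusted p = 0.000300), and its control siRNA arrays spread more (SD 0.20) than its SDC1 siRNA arrays (SD 0.06). The groups did not overlap, and the gene has 1 probe set. The other TRAPPII subunits were TRAPPC9, higher by 0.21 (adjusted p = 0.0222), or at 0.11 with all probe sets averaged (adjusted p = 0.288), and TRAPPC10 at -0.13 (adjusted p = 0.269). The TRAPPC10 value is the mean of a probe set at -0.28 (adjusted p = 0.0243 over all probe sets) and another at 0.03 (SE 0.14).

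In the core, 3 of 9 genes fell and none rose in limma, where 15.1% and 13.0% of all genes did. At an unadjusted p below 0.05 the numbers in the core were 4 and 0. TRAPPC4, part of the site that activates Rab1, was at -0.23, -0.19 and -0.23 in SDC1 siRNA arrays, against 0.23, 0.18 and 0.18 in control siRNA arrays, a fall of 0.42 (SE 0.055, adjusted p = 0.000692). TRAPPC6B was at -0.20, -0.22 and -0.11 with SDC1 siRNA, against 0.11, 0.23 and 0.18 with control siRNA, a fall of 0.35 (SE 0.064, adjusted p = 0.00373), and the groups of both genes stood apart. TRAPPC1 fell by 0.31 (adjusted p = 0.0119). Of the core genes that did not pass, TRAPPC3 was at -0.18 (adjusted p = 0.0506), its paralog TRAPPC3L, of the dimmest class, at -0.14, TRAPPC5 at -0.02, TRAPPC2L at 0.06 and TRAPPC2 at 0.02. TRAPPC6A, the paralog of TRAPPC6B, was at 0.19 with a wide SE of 0.12 (adjusted p = 0.304), at 0.39 and -0.10 within the spike-in batches.

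No TRAPPIII subunit passed in limma, although all 4 values were below 0 and 1 had an unadjusted p below 0.05. TRAPPC11, mutated in a muscular dystrophy, was at 0.04, -0.18 and -0.25 after SDC1 siRNA, against 0.13, -0.03 and 0.13 after control siRNA. These groups overlap, and the log2 fold change was -0.21 (SE 0.088, adjusted p = 0.119), the mean of 3 probe sets of which one fell by 0.35 (adjusted p = 0.0125 over all probe sets). TRAPPC8 was at -0.07 and TRAPPC12 at -0.01. TRAPPC13 was at -0.20 (SE 0.13, adjusted p = 0.305) on its brightest probe set, while a cross-hybridising probe set, left out of the gene value, was at -1.15.

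DENND1 proteins activate Rab35 and DENND2 proteins Rab9, Rabs of endosome recycling and of traffic from late endosomes to the Golgi. Of these 7 genes 3 fell and none rose in limma, where 15.1% and 13.0% of all genes did, and none of the 7 was higher at an unadjusted p below 0.05. DENND2A was at -0.37, -0.23 and -0.36 in SDC1 siRNA arrays, against 0.23, 0.43 and 0.41 in control siRNA arrays. It fell to 62.6% of control (log2 fold change -0.68, SE 0.077, adjusted p = 0.000306) without overlap, and its 3 probe sets lay between -0.68 and -0.58. DENND2D was at -0.22, -0.23 and -0.13 with SDC1 siRNA, against 0.30, 0.13 and 0.25 with control siRNA, lower by 0.42 (SE 0.067, adjusted p = 0.00172). DENND1A was at -0.14, -0.15 and -0.28 after SDC1 siRNA, against 0.34, 0.22 and 0.12 after control siRNA, lower by 0.42 (SE 0.076, adjusted p = 0.00365), the mean of probe sets at -0.71 and -0.12. The groups of these genes did not overlap. DENND1B was at 0.01, -0.10 and -0.11 in SDC1 siRNA arrays, against 0.20, 0.07 and 0.03 in control siRNA arrays, groups that also stood apart, but the log2 fold change of -0.16 (SE 0.069, adjusted p = 0.116) did not pass and its 6 probe sets ran from -0.43 to 0.33. DENND1C was at -0.13, DENND2B at 0.13 (adjusted p = 0.173) and DENND2C at -0.02.

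DENND2A and DENND2B differed by 0.80 on the log2 scale, the widest gap in the DENND family, and their promoters are shown on the same terms as those of VPS4A and VPS4B. That of DENND2A is chr7:140640814-140641063 on the minus strand, and that of DENND2B chr11:8871370-8871619 on the minus strand. The DENND2B promoter holds an E-box, in capitals, and the DENND2A promoter none of the 3 motifs.
DENND2A: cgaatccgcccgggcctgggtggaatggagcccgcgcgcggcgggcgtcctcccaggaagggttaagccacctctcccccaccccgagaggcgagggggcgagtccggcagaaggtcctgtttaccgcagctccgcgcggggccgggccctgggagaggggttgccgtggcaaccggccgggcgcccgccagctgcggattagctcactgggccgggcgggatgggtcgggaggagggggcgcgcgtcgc
DENND2B: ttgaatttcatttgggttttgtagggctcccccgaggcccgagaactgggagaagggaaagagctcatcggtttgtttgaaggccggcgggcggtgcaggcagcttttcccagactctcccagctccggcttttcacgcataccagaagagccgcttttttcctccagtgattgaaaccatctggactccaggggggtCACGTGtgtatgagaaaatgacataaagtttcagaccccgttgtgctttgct

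Among all 27305 genes with a RefSeq promoter, 6.49% held the E-box letters, 8.82% the ETS letters and 1.13% the NRF1 motif in these 250 bases, on either strand. Among the 15384 tested genes with one, the shares were 7.83%, 12.02% and 1.5%. Promoters were found for 57 of the 71 members, and 6, 11 and 1 of them (10.53%, 19.3% and 1.75%) held these motifs. Among members that fell, 20 had a promoter in the table, and 1, 3 and 0 of these held them. Among members that rose, 8 had a promoter, and 1, 1 and 1 of these held them. Members that did not pass had 29 promoters, and 4, 7 and 0 of these held them. Mean GC content was 66.0% in promoters of members and 56.9% in all promoters. Whether GC content bears on the motif shares was not tested.

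Of the DENND3 to DENND6 genes 5 of 8 fell and none rose in limma, where 15.1% and 13.0% of all genes did. None of the 8 was higher at an unadjusted p below 0.05. DENND4A, whose subfamily activates Rab10 in secretion to the cell surface, was at -0.37, -0.36 and -0.28 with SDC1 siRNA, against 0.28, 0.28 and 0.40 with control siRNA. It fell by 0.66 (SE 0.063, adjusted p = 0.000117) without overlap, and its dimmer probe set gave -0.24 (adjusted p = 0.0934 over all probe sets). DENND4B was at -0.14, -0.14 and -0.16 after SDC1 siRNA, against 0.32, 0.26 and 0.14 after control siRNA, a fall of 0.39 (SE 0.066, adjusted p = 0.00242), without overlap. DENND4C was at 0.02 (adjusted p = 0.895).

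DENND5B, of a subfamily that activates Rab39, was at -0.28, -0.30 and -0.21 in SDC1 siRNA arrays, against 0.48, 0.23 and 0.30 in control siRNA arrays. It fell by 0.60 (SE 0.076, adjusted p = 0.000543), with the highest value in control siRNA replicate 1, while 3 dimmer probe sets lay between -0.18 and 0.15 and the mean of all 5 was -0.26 (adjusted p = 0.00847). DENND6A, which activates Rab14, was at -0.31, -0.49 and -0.17 with SDC1 siRNA, against 0.18, 0.17 and 0.18 with control siRNA. It fell by 0.50 (SE 0.082, adjusted p = 0.00213), and SDC1 siRNA arrays spread more (SD 0.16) than control siRNA arrays (SD 0.0047). DENND3, which activates Rab12, fell by 0.28 (adjusted p = 0.0104), the mean of probe sets at -0.47 and -0.09. The paralogs DENND5A and DENND6B were at -0.15 (adjusted p = 0.123) and 0.04 (adjusted p = 0.696). Outside the numbered pairs, DENND11 rose by 0.31 (adjusted p = 0.00636), or was at 0.15 with its 3 probe sets averaged (adjusted p = 0.175), and DENND10, of the dimmest class, was at -0.03.

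**Figure D4:**
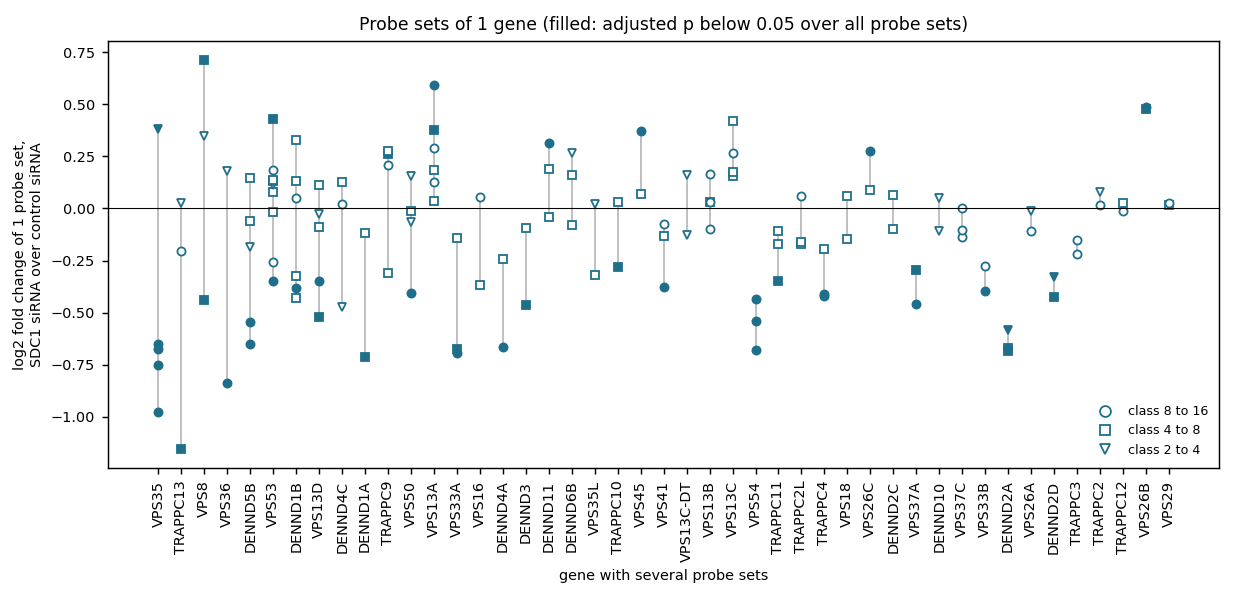
Log2 fold change of each probe set (vertical axis) for the 45 members with several probe sets, ordered by their spread, with symbols for the brightness class and filled symbols at an adjusted p below 0.05 over all probe sets. VPS35 and TRAPPC13 spread most, and VPS35, VPS8 and VPS53 have filled symbols on both sides of 0.

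Of the 36 members that passed, 13 have 1 probe set and 23 have several. In 15 of these 23 all probe sets share the sign. Among the 45 members with several probe sets 24 had values on both sides of 0, and 3 of these (VPS35, VPS53 and VPS8) had probe sets that passed in each direction. In all, 7 members did not pass although at least 1 of their probe sets did.

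Both spike-in batches hold arrays of both groups, and in a fit within a batch the lone array of a group is assumed to vary like the others. All 36 members that passed had the same sign in both batches, as did all 5552 genes that passed. The first batch alone gave 19 members past the threshold, where 13.4% of all genes passed, and the second 9, where 9.3% passed. VPS4B was at -0.99 and -0.92, VPS35 at -0.81 and -0.80 and VPS26B at 0.42 and 0.54 in these batches. TRAPPC13, which did not pass, had the widest split, at -0.55 and 0.13.

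**Figure D5:**
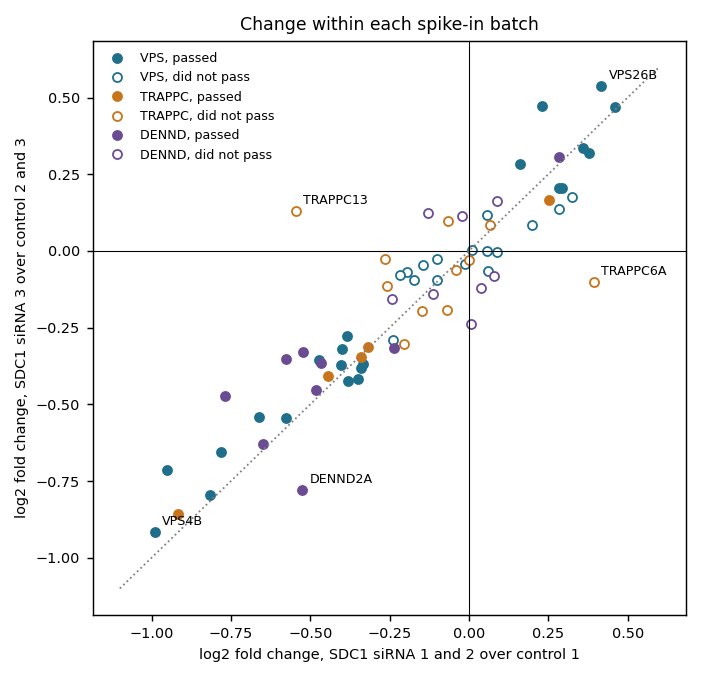
Log2 fold change within the first spike-in batch (horizontal axis) and the second (vertical axis) for the 71 members, filled where a member passed in all 6 arrays, with a dotted line of equal values. Filled points lie where both values are below 0 or both above 0, and TRAPPC13 and TRAPPC6A lie farthest from the line among open points.

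Several calls near the threshold were lost with 1 array fewer. VPS72 passed with all 6 arrays (adjusted p = 0.0328) but lost its call whichever of them was left out, with an adjusted p from 0.0546 to 0.0901. Its log2 fold change then lay between 0.17 and 0.23, and that of VPS35L between -0.43 and -0.24. VPS35L was lost without any array but SDC1 siRNA replicate 2, VPS13C without any but control siRNA replicate 3, VPS9D1 without SDC1 siRNA replicates 1 or 3 or control siRNA replicates 1 or 2, TRAPPC9 without SDC1 siRNA replicates 1 or 2 or control siRNA replicates 1 or 2, and VPS26C without SDC1 siRNA replicate 1 or control siRNA replicate 3. The highest adjusted p reached was 0.152 for VPS35L, 0.140 for VPS13C, 0.0848 for VPS9D1, 0.0768 for TRAPPC9 and 0.0638 for VPS26C. The other 30 members that passed did so without each array in turn.

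Genes that work with these families but carry other names were read from 9 lists with 224 entries, which gave 215 different measured genes. Of these 72 fell and 19 rose, where 15.1% and 13.0% of all genes did, with a median log2 fold change of -0.09. Most of the partner genes were of the brightest class, where 22.9% of all genes fell and 17.9% rose. Each list below is to be read beside those shares too. ESCRT genes and their partners, without PDCD6IP (ALIX), CHMP3 and VTA1, which were not analysed here, had 9 of 20 lower and none higher in limma, with none higher at an unadjusted p below 0.05 either and a median of -0.22. CHMP1B, an ESCRT-III subunit, fell by 0.73 (SE 0.084, adjusted p = 0.000306), STAM2, an ESCRT-0 subunit, by 0.64 (SE 0.066) and the deubiquitinase STAMBP by 0.50 (SE 0.067), while MVB12A of ESCRT-I was at -0.27 (adjusted p = 0.0592). In the list of sorting nexins, WASH and Commander, 8 of 24 fell and 2 rose. SNX27, which hands cargo to retromer, rose by 0.74 (SE 0.065, adjusted p = 7.78e-05), and the WASH subunit WASHC2C, which binds VPS35, fell by 0.70 (SE 0.060, adjusted p = 7.40e-05). COMMD2 fell by 0.56 and COMMD6 was at -0.19 (adjusted p = 0.0743).

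Partners of HOPS, CORVET and the endosomal lipid kinase had 6 of 13 lower and 2 higher, where 15.1% and 13.0% of all genes were. BECN1, the autophagy regulator beclin-1, fell by 0.66 (SE 0.058, adjusted p = 8.09e-05). PIK3R4 and RUBCN, the kinase's regulatory subunit and an inhibitor, each fell by 0.41, but were at -0.14 and -0.05 with all probe sets averaged (adjusted p = 0.0878 and 0.659), and RUBCN turned to 0.00 with their median. PLEKHM1 and TGFBRAP1 rose by 0.47 and 0.43 (adjusted p = 0.00456 and 0.00193), and RILP was at 0.20 (adjusted p = 0.0589). Exocyst, COG and golgin tethers had 14 of 28 lower and 3 higher, with a median of -0.20. The golgin GCC2 fell by 0.74 (SE 0.070), and the COG subunits COG5 and COG1 by 0.72 and 0.60 (adjusted p = 6.86e-05 and 0.000341), while EXOC3 was at 0.17 (adjusted p = 0.0790).

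SNAREs, the proteins that fuse vesicles, had 9 of 32 lower and 3 higher, where 15.1% and 13.0% of all genes were. The SNAREs were led by a rise of 1.42 for STX2 (SE 0.061, adjusted p = 2.48e-06) and falls of 0.77 for STX3 and 0.51 for VAMP3, with SEC22B at -0.23 (adjusted p = 0.0782). COPII and COPI coats had 9 of 23 lower and 3 higher. The genes that rose were COPII genes, SAR1B by 1.56 (SE 0.080, adjusted p = 5.32e-06), SEC24A by 1.09 and SEC24B by 0.87. Other COPII genes passed lower, with SEC24D at -0.63, PREB at -0.51, SEC24C at -0.42, SAR1A at -0.34 and SEC23A at -0.30. COPII genes thus went both ways, and SEC23B was at -0.18 (adjusted p = 0.0977).

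Other DENN proteins and Rab exchange factors had 6 of 21 lower and none higher in limma, with 2 higher at an unadjusted p below 0.05. AVL9 fell by 0.76 (SE 0.067, adjusted p = 8.34e-05), FNIP2, a partner of folliculin, by 0.69 (SE 0.058) and SMCR8, a partner of C9orf72, by 0.46 (SE 0.072), while FNIP1 was at -0.29 (adjusted p = 0.0587). TBC-domain proteins, which switch Rabs off, had 6 of 32 lower and 4 higher, with a median of 0.02. These shares, 18.75% and 12.5%, were close to the 15.1% and 13.0% of all genes. TBC1D9 fell by 1.65 (SE 0.060, adjusted p = 1.62e-06), TBC1D30 rose by 1.68 (SE 0.14, adjusted p = 5.70e-05) and TBC1D14 by 0.67, and TBC1D8B was at 0.23 (adjusted p = 0.322).

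With all probe sets averaged, changes of partner genes were over 1.5 times smaller, but still passed, for STAMBP (-0.28), GCC2 (-0.36), COG1 (-0.29), STX2 (0.92), STX3 (-0.50), SAR1B (0.89), SEC24A (0.55), AVL9 (-0.46), SMCR8 (-0.30), TBC1D9 (-0.81) and TBC1D30 (1.04, or 0.72 with the class read from all 6 arrays).

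The last list holds Rab GTPases picked as substrates, which are only a part of that family. Of these Rab GTPases 5 of 22 fell and 2 rose (22.7% and 9.1%), where 15.1% and 13.0% of all genes did, with a median of 0.00. RAB10, the substrate of DENND4 proteins, fell by 0.34 (SE 0.065, adjusted p = 0.00451) beside DENND4A and DENND4B. RAB14, the substrate of DENND6 proteins, rose by 0.32 (SE 0.062, adjusted p = 0.00489) beside the fall of DENND6A. RAB5A, which recruits CORVET, fell by 0.38 (SE 0.076, adjusted p = 0.00607), and RAB39A, of the DENND5 subfamily's substrates, was at 0.24 (adjusted p = 0.105). Among substrates of DENND2 proteins, RAB9B rose by 0.51 (SE 0.10, adjusted p = 0.00617) beside the falls of DENND2A and DENND2D, and RAB9A was at -0.10 (adjusted p = 0.294). RAB35, the substrate of DENND1 proteins, was at 0.04 (adjusted p = 0.638) and RAB12, that of DENND3, at 0.16 (adjusted p = 0.293). Substrates and activators thus shared no single pattern.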

How the data were processed

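Expression was measured on 6 Affymetrix arrays, 3 of the SDC1 siRNA group and 3 of the control siRNA group of MDA-MB-231 cells, assigned by their labels. The authors deposited log2 values made with RMA per the submitters' processing notes (version not given in the sources used here), and every one of the 54675 probe sets has a median of 0 over the 6 arrays. Background signal was not used here, so no probe set could be called absent, and the number of arrays limits the precision. The median SE of a log2 fold change was 0.0745 over all genes.

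Of the probe sets 41097 carry 1 gene symbol in GEO's platform annotation, 1801 several and 11777 none. A level class (2 to 4, 4 to 8 or 8 to 16) was read from the numeric step of each probe set's values. In the brightest class 16.1% of probe sets had a coarser step than such a level leaves. The value of a gene is the mean of its probe sets in its brightest class, with cross-hybridising ones used only where there was no other. Members had 161 probe sets, of which 100 were used. Groups were compared by lmFit and eBayes of limma (version 3.58.1, R 4.3.3), two-sided, with Benjamini-Hochberg adjustment over 19775 genes, and the fit was tested on simulated data.

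The members, the partner lists and the questions were chosen with earlier results of these data known. Members were named with full values where they passed without overlap, up to 24 by size of change, and so was the member of largest change that did not pass in each family. In each of the 9 partner lists the 3 genes of lowest p that passed were named, with the largest change among those that did not pass. Rab substrates of DENND1, DENND2 and DENND3 proteins were named as well. So were the other COPII genes that passed and the HOPS and CORVET partners that rose. The promoters of VPS4A and DENND2B, which did not pass, were added beside their paralogs after their values were seen.

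Batches were read from 24 poly-A spike-in probe sets, since the labels name none. Arrays of the same replicate number deviated together with correlations of 0.014, 0.082 and 0.098. Between arrays of different numbers the correlations ran from -0.118 to 0.04. The numbers were not taken to pair the samples, but these few values cannot exclude a weak pairing. A replicate block was therefore fitted as an alternative. Promoters are those of the RefSeq table on GRCh38.p14.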

Additional observations from a re-analysis of the deposited data

How the results depend on the processing

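Under 17 alternatives all 36 members that passed kept their sign, 27 passed under every alternative on 5 or 6 arrays, and 9 under every alternative. Within spike-in batch A, the first, and batch B, the second, each with 3 arrays, 19 and 9 members passed, 2650 and 1839 of all genes and 43 and 26 partner genes, against 36, 5552 and 91 in all 6 arrays, and 8 members passed at 1.5-fold or more. Leaving out each array in turn gave 31 to 34 members, 4472 to 5048 genes and 71 to 82 partner genes, and an SDC1 log2 fold change of -2.47 to -2.33. The replicate block gave 34 members and cost VPS35L and VPS72 their calls (adjusted p = 0.0674 and 0.0506). The VPS median was -0.082 with the mean of all probe sets and -0.080 within batch B, and -0.14 to -0.12 with an array left out. The TRAPPC median was -0.18 within batch A and -0.16 to -0.077 with an array left out. The DENND median was -0.28 with the class from all 6 arrays, -0.22 without the dimmest class, -0.20 with the batch as a block, -0.24 within each batch, and -0.20 to -0.15 with an array left out. RUBCN turned to 0.0046 with the median of its probe sets, and TBC1D8B to -0.0060 within batch B. The cause of these shifts was not tested. Fewer arrays enter the fits within batches. Another background correction could not be run, since the deposited values hold no background signal.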

Other observations

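Of the probe sets assigned to a member together with another gene, which were left out of every gene value, the one shared by TRAPPC2 and TRAPPC2B was lower by 0.60 on the log2 scale after SDC1 siRNA than after control siRNA (SE 0.069, limma adjusted p = 0.000479 over all probe sets). The TRAPPC2 gene value itself, from probe sets of that gene alone, is near 0. A pair of probe sets shared by TRAPPC10 and LOC102724200 was at -0.35 and -0.24 (adjusted p = 0.0384 and 0.0320). The 3 probe sets shared by DENND10 and DENND10P1 lay between 0.13 and 0.17, and the one shared by VPS72 and TMOD4 was at -0.20, none of them past the threshold in limma. The transcripts of these genes cannot be told apart on such probe sets.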
